A study of Mus musculus with 6 samples.

Results

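Autophagy is the process by which cells wrap cytoplasm, damaged organelles or protein aggregates in a double membrane, the autophagosome, and deliver it to the lysosome. The genes described here are 37 components of that machinery and its cargo receptors, chosen by gene symbol from the 16588 genes of the deposited count table, and all 37 were found and tested. No measured value enters the rule, but the list was drawn up with earlier results of these data known.

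The libraries came from group 2 innate lymphoid cells (ILC2s), tissue-resident lymphocytes that make type 2 cytokines in response to the alarmin IL-33. All mice received 0.5 µg of recombinant IL-33 through the nose on 3 days, lung cells were taken on day 4, and sorted ILC2s were cultured for 18 h. Of the 6 libraries, 3 carry the genotype C57BL/6 (wild type, WT) and 3 the genotype Cnr2 KO, a knockout of the gene for the cannabinoid receptor CB2. The series title speaks of adipose tissue, but all samples are labelled lung. The labels give neither the age of the mice nor the Cnr2 allele, and do not say whether replicates came from separate animals, so the p-values reflect the spread among these libraries, and that spread may be technical. cDNA was made from 10 pg of RNA per sample with a low-input kit.

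Cnr2 itself was not lower in the group labelled Cnr2 KO. It was at 3.99, 3.89 and 3.17 CPM in the WT libraries and 7.55, 7.42 and 7.49 CPM in the other 3. A count for the whole gene cannot show whether part of it was deleted, so these values do not test the label. The second group is called by its label throughout, as the KO-labelled libraries. A level in CPM is a count divided by the library size after TMM scaling in edgeR. Total counts were 17867541 to 19399819 in 5 libraries and 129617689 in WT replicate 2, 6.88 times the mean depth of the others. Of 12150 genes tested in the whole table, 66.2% differed between the groups, 33.0% higher and 33.2% lower in the KO-labelled libraries. All 15 ILC2 markers had counts, and 11 were higher and 3 lower in the KO-labelled libraries. Their sum, carried mainly by Il5 and Il2ra, was 15040 to 15680 CPM in WT and 15198 to 16377 CPM in the other group, but Gata3 was 3.72-fold, Nmur1 9.38-fold and Rora 2.24-fold higher and Il2ra 2.03-fold lower. Thy1, which encodes the surface protein CD90, was at 0.845 to 3.88 CPM in all 6 libraries. Markers of some other cell types moved with the groups. The T cell list (7 of 11 genes analysed) summed to 16.8 to 17.5 CPM in WT and 26.6 to 29.4 CPM in the KO-labelled libraries, with 2 genes higher and 2 lower. Cd3g went from 4.65 ± 0.627 to 17.2 ± 1.41 CPM, whereas Trac was 3.14-fold and Cd6 4.48-fold lower. The corresponding sums were 12.6 to 27.0 and 45.7 to 51.6 CPM for epithelial markers (4 of 6), and 106 to 114 and 39.3 to 40.3 CPM for endothelial markers (2 of 5, nearly all Pecam1). Among the epithelial markers Epcam was 4.24-fold higher in the KO-labelled libraries and made up most of their sum, whereas Krt18 was 2.90-fold lower. Krt8 and Cdh1, not tested, went from 3.51 ± 4.52 to 0 CPM and from 0.781 ± 0.826 to 0.0883 ± 0.111 CPM. For dendritic cell markers (6 of 8) the sums were 468 to 499.6 and 27.3 to 34.3 CPM, with Itgax, Flt3 and Zbtb46 below 1 CPM in every library. Ccr7 made up most of the sum in WT, and Xcr1 most of it in the KO-labelled libraries. Xcr1 was 2.21-fold higher in that group, while Batf3 was lower, at 1.02 ± 0.172 CPM in WT and 0 in the other group. Macrophage markers (4 of 8) summed to 1.10 to 2.18 and 3.44 to 6.49 CPM, with Lyz2 and Itgam below 1 CPM. Sums for B cell (1 of 5, Cd79b), ILC3 (4 of 6) and eosinophil, basophil and mast cell markers (4 of 8) were 16.1 to 17.2 and 25.1 to 26.3, 4.66 to 4.83 and 0.822 to 1.16, and 9.51 to 11.8 and 25.7 to 30.9 CPM. Erythroid markers (2 of 5, mostly Hba-a1) summed to 0.735 to 1.27 and 5.13 to 6.27 CPM. The part of other cell types in the differences below was not tested, and in bulk samples fewer cells of a type cannot be told apart from less RNA per cell.

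Autophagosomes form in an ordered series of steps. The ULK1 kinase complex starts the process, a class III PI3-kinase complex marks the membrane with the lipid PI3P, ATG9, ATG2 and WIPI proteins extend it, and a ubiquitin-like conjugation system attaches ATG8 proteins (LC3 and GABARAP) to its surface. Cargo receptors link ATG8 proteins to the cargo, which is often ubiquitinated, and the transcription factors TFEB and TFE3 switch on autophagy and lysosome genes. Innate lymphoid cells, like other lymphocytes, are known to rely on autophagy to keep their mitochondria in order.

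Of the 37 autophagy genes, 18 were higher and 8 lower in the KO-labelled libraries, and 11 did not pass the test (quasi-likelihood test of edgeR, with p adjusted by Benjamini-Hochberg over all 12150 genes and a threshold of 0.05). That is 70.3% of the genes against 66.2% of all tested genes, so the share that differed was near the background. By direction, 48.6% of the autophagy genes were higher against a background of 33.0%, and 21.6% were lower against 33.2%. The median log2 fold change was 0.17 for the autophagy genes and 0.01 for all tested genes. Summed, the 37 genes nevertheless took a smaller share of all counts in the KO-labelled libraries, 0.307 to 0.311%, than in WT, 0.326 to 0.338%. The 3 values of the KO-labelled libraries lay wholly above those of WT in 18 of the autophagy genes and wholly below in 9. Of all tested genes 68.9% had no overlap, 34.1% above and 34.8% below. Most differences were small, and their size was near that of all tested genes. The median absolute log2 fold change was 0.39 for the autophagy genes and 0.40 for all tested genes. A passing difference of at least 1.5-fold was found in 6 of the 37 genes in the higher direction and 4 in the lower. Of all tested genes 16.9% and 15.7% had such a difference. The largest were those of Calcoco1, Tfeb, Tax1bp1 and Vmp1. Without the deep library, WT replicate 2, 17 were higher and 8 lower.

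**Figure D1:**
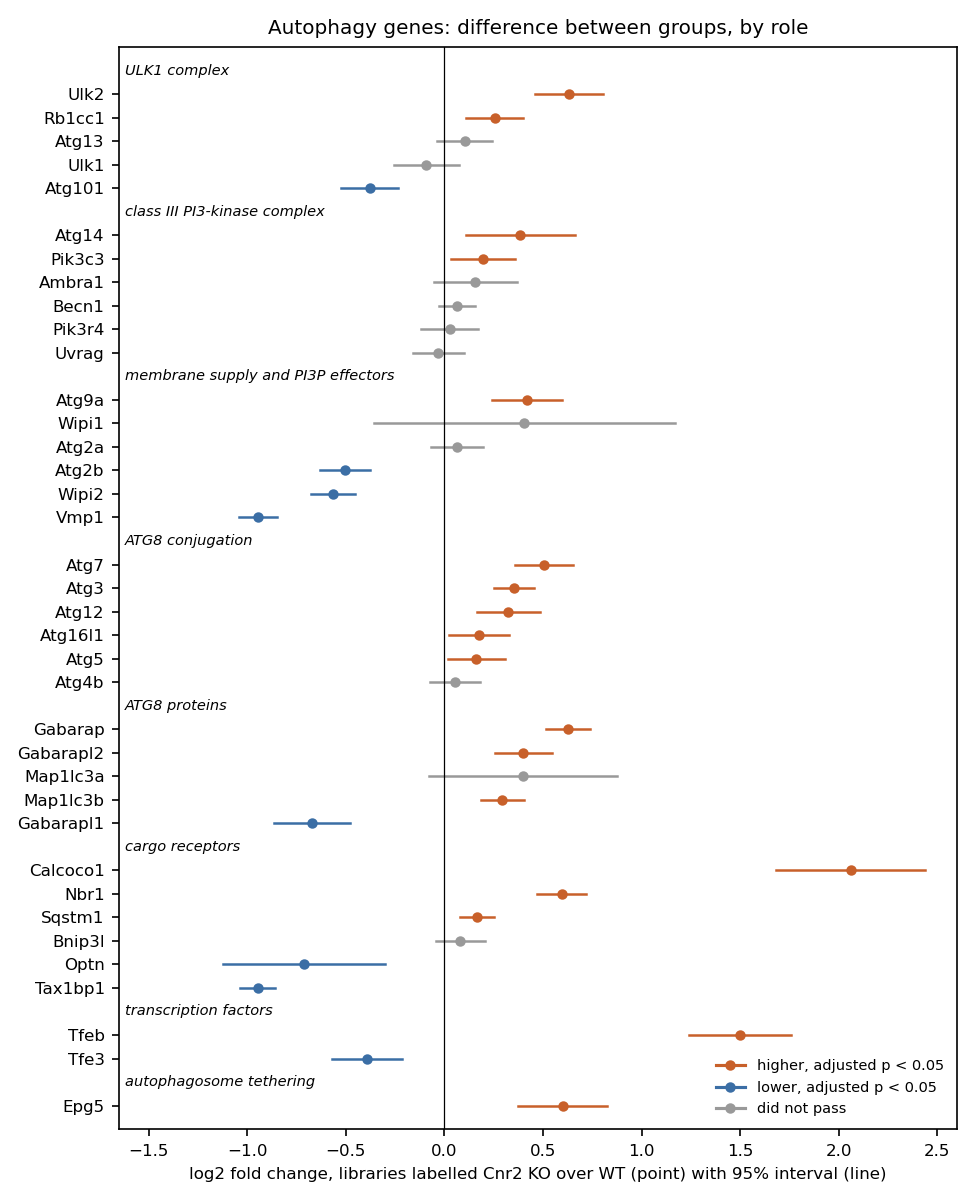
Log2 fold change of each of the 37 autophagy genes (x axis, KO-labelled libraries over WT) with its 95% interval, grouped by role on the y axis and coloured by the outcome of the edgeR test. Calcoco1 at 2.06 and Tfeb at 1.5 lie farthest to the right, and Tax1bp1 at -0.95 and Vmp1 at -0.95 farthest to the left.

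Per kilobase of exon, which allows genes to be compared, Sqstm1 had the highest level of the 37 in both groups, at 140.5 ± 2.88 CPM per kb in WT and 158 ± 4.27 in the KO-labelled libraries (SD, n = 3 each). Vmp1 followed in WT at 111 ± 5.66 CPM per kb, then Tax1bp1 at 62.0 ± 2.29 and Gabarap at 46.0 ± 2.05. In the KO-labelled libraries the order was Sqstm1, Gabarap at 71.0 ± 2.06, Vmp1 at 57.7 ± 1.16 and Atg3 at 51.5 ± 0.156 CPM per kb, and Tax1bp1 had rank 6 of the 37. The neighbours Tax1bp1 and Gabarapl2, at 32.1 ± 0.539 and 32.1 ± 1.83 CPM per kb in that group, did not differ beyond their spread. Wipi1 was lowest in both groups, at 0.221 ± 0.0669 and 0.282 ± 0.0597 CPM per kb. Lengths are the union of all annotated exons, and the first 4 places in each group were the same when the longest transcript was used. With that length Tax1bp1 had rank 5 in the KO-labelled libraries, at 75.5 CPM per kb, close to Atg3 at 78.1.

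In the kinase complex that starts autophagy, the second ULK kinase was higher in the KO-labelled libraries while the founding member did not pass the test. Ulk2, the closest relative of Ulk1, was at 34.7, 39.0 and 30.2 CPM in the WT libraries and 54.9, 52.0 and 56.2 CPM in the KO-labelled ones. The groups did not overlap, and the difference was 1.55-fold (log2 fold change 0.63, SE 0.08, edgeR adjusted p = 7.04e-07). Ulk1, the kinase inhibited by mTORC1 and activated by AMPK, was at 27.9, 29.4 and 27.2 CPM in WT and 26.5, 26.5 and 26.6 CPM in the other group. Its difference did not pass (log2 fold change -0.09, 95% interval -0.26 to 0.07, edgeR adjusted p = 0.321), although the values did not overlap. With a correction for GC content and length it passed as lower (log2 fold change -0.19, edgeR adjusted p = 0.0373). By length-scaled level Ulk2 made up 57.0 ± 2.23% of the ULK1 and ULK2 transcripts in WT and 69.0 ± 0.852% in the KO-labelled libraries. These shares were 52.6 ± 2.26% and 65.0 ± 0.905% with the longest transcript as length. The scaffold Rb1cc1 (FIP200) was 1.19-fold higher, at 42.1 ± 1.34 and 50.3 ± 2.26 CPM, but did not pass with the GC and length correction (log2 fold change 0.04, edgeR adjusted p = 0.589). Atg101, which stabilises the adaptor ATG13, was 1.30-fold lower, from 50.2 ± 2.39 to 38.7 ± 0.769 CPM. Atg13 itself was at 47.4 ± 1.9 and 50.7 ± 2.35 CPM and did not pass (edgeR adjusted p = 0.192).

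Of the 6 genes of the class III PI3-kinase complex, 2 were higher in the KO-labelled libraries and 4 did not pass. The share higher was 33.3%, against 33.0% of all tested genes. Becn1, which encodes the core subunit Beclin 1, was at 222, 229 and 222 CPM in WT and 227, 242 and 234 CPM in the other group. These values overlapped, and the 95% interval of the fold change ran from 0.979 to 1.12 (edgeR adjusted p = 0.223), although it passed with upper-quartile scaling (0.0489). Atg14, the subunit that directs the complex to autophagosomes, was 1.31-fold higher at the low level of 7.66 ± 0.726 and 10.2 ± 0.903 CPM (edgeR adjusted p = 0.0151). Pik3c3, the catalytic subunit VPS34, was 1.15-fold higher (edgeR adjusted p = 0.0316). Neither call was firm: without WT replicate 3 the edgeR adjusted p was 0.0555 for Atg14 and 0.203 for Pik3c3, without KO-labelled replicate 2 it was 0.0804 and 0.0827, and without replicate 3 of that group it was 0.0689 for Pik3c3. Pik3r4, the regulatory subunit VPS15, was at 52.1 ± 3.84 and 52.7 ± 1.29 CPM, and Uvrag, which takes the place of ATG14 in complexes acting on later vesicles, at 75.2 ± 2.22 and 73.7 ± 5.43 CPM. Uvrag passed as lower with the GC and length correction (log2 fold change -0.15, edgeR adjusted p = 0.0259). Ambra1, a scaffold that regulates Beclin 1, was spread widely over the KO-labelled libraries, at 67.1, 59.0 and 46.5 CPM against 50.9, 52.1 and 51.8 CPM in WT. It did not pass with all libraries (edgeR adjusted p = 0.179) and passed as higher without KO-labelled replicate 3 (log2 fold change 0.29, edgeR adjusted p = 1.83e-03).

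Of the 6 genes that supply and extend the membrane, 3 were lower and 1 higher in the KO-labelled libraries. Vmp1, an endoplasmic reticulum protein that remodels lipids where autophagosomes form, was at 420.3, 453 and 412 CPM in WT and 219, 221 and 228 CPM in the KO-labelled libraries. Every WT value was well above every value of the other group, and the difference was 1.93-fold (log2 fold change -0.95, SE 0.05, edgeR adjusted p = 3.81e-14). An exon of Vmp1 (chromosome 11, 86583865 to 86683836, GRCm38) contains the microRNA gene Mir21a on the same strand, so reads from the precursor of that microRNA cannot be told apart from Vmp1 in gene counts. Wipi2, which reads PI3P and recruits the conjugation machinery, was at 115, 116 and 112 CPM in WT and 76.4, 80.8 and 75.2 CPM in the KO-labelled libraries. It was 1.48-fold lower with no overlap (edgeR adjusted p = 4.18e-09). Wipi1, its relative, was near 1 CPM in all libraries and its difference could not be resolved at this depth (95% interval of the log2 fold change -0.36 to 1.17).

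The lipid transfer proteins ATG2A and ATG2B, which channel lipids into the growing membrane, differed in outcome. Atg2b was at 93.8, 90.7 and 94.5 CPM in WT and 69.2, 66.6 and 60.2 CPM in the KO-labelled libraries. It was 1.42-fold lower with no overlap (log2 fold change -0.51, SE 0.06, edgeR adjusted p = 1.60e-07). Gskip, which shares exon sequence with Atg2b on the opposite strand, was higher in that group, at 34.5 ± 3.46 and 54.2 ± 3.79 CPM. Atg2a was at 58.7 ± 2.05 and 61.4 ± 2.62 CPM and did not pass (edgeR adjusted p = 0.399). Atg9a, the scramblase carried on the vesicles that seed the membrane, was 1.34-fold higher, from 24.9 ± 2.45 to 33.8 ± 1.36 CPM (edgeR adjusted p = 1.73e-04).

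In the conjugation system 5 of 6 genes were higher in the KO-labelled libraries (83.3%, against 33.0% of all tested genes). Of these, Atg5 and Atg16l1 were without firm calls. Atg4b did not pass. Atg7, the E1-like enzyme that activates both ATG12 and the ATG8 proteins, was at 50.9, 49.9 and 53.3 CPM in WT and 66.1, 80.4 and 71.9 CPM in the KO-labelled libraries. It was 1.42-fold higher with no overlap (log2 fold change 0.51, SE 0.07, edgeR adjusted p = 1.31e-06). Atg3, the E2-like enzyme that passes ATG8 to its lipid, was 1.28-fold higher (127 ± 3.76 and 162 ± 0.492 CPM, edgeR adjusted p = 1.02e-06). Atg12, the ubiquitin-like protein joined to ATG5, was higher by 0.32 on the log2 scale (35.3 ± 2.36 and 44.4 ± 3.27 CPM). Atg5, its partner, was at 58.4, 60.3 and 53.9 CPM in WT and 65.6, 69.4 and 58.7 CPM in the other group. The values overlapped, and the 1.12-fold difference passed narrowly (edgeR adjusted p = 0.0465). Atg16l1, which places the ATG12 and ATG5 conjugate on the membrane, was 1.13-fold higher (edgeR adjusted p = 0.0421). The calls of Atg5 and Atg16l1 were lost in 8 and 9 of 16 alternatives, with edgeR adjusted p = 0.191 and 0.166 without WT replicate 3 and 0.243 and 0.269 without KO-labelled replicate 2. Atg5 also lost its call without WT replicate 1 (0.0822) and without KO-labelled replicate 1 (0.107), and Atg16l1 without WT replicate 1 (0.0504) or 2 (0.0605) and with the GC and length correction (0.759). Atg4b, the protease that trims ATG8 proteins and removes them from the membrane, was at 63.2 ± 3.08 and 65.6 ± 1.04 CPM (edgeR adjusted p = 0.441).

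TFEB and TFE3 bind the E-box CACGTG, most strongly within the longer CLEAR element, so promoter windows from RefSeq (GRCm38.p6, 250 bases before to 50 bases after each start) were searched for CACGTG and for GTCACGTG, which contains it, on both strands. Windows were matched for 29 of the 37 autophagy genes. CACGTG was found in 4 of their 36 windows (11.1%), against 7.15% of all 32851 windows, and GTCACGTG in 3 (8.33%, against 2.25%). The 4 genes were Atg3, Atg5, Atg7 and Atg14, all of which were higher in the KO-labelled libraries, Atg5 and Atg14 without firm calls. They are shown because 3 of them belong to the conjugation system. Each stretch is written 5′ to 3′ on the strand of the gene, with CACGTG in capitals.
Atg3, chr16:45158675-45158823, plus strand: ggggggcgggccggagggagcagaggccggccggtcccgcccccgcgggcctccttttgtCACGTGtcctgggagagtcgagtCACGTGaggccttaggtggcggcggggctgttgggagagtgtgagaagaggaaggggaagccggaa
Atg5, chr10:44268265-44268358, plus strand: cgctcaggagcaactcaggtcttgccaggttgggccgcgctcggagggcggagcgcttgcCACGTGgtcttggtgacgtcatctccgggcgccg
Atg7, chr6:114670904-114671029, plus strand: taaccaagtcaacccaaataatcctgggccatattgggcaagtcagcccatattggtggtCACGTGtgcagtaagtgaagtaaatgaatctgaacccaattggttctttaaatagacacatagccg
Atg14, chr14:47568415-47568495, minus strand: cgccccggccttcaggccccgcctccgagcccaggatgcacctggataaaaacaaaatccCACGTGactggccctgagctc
Atg3 holds the motif at 2 places, and in Atg3, Atg7 and Atg14 the flanking bases complete GTCACGTG on one strand. The starts in the Atg7 and Atg14 windows lie inside the annotated genes, downstream of their 5′ ends. Over all tested genes with a window, 31.5% of the 1131 with CACGTG were higher and 40.8% lower in the KO-labelled libraries, against 34.1% and 34.1% of the 8139 without it. With GTCACGTG, 38.5% of 460 genes were higher and 34.8% lower. A match describes the letters of the window and not the binding of a factor.

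Among the 5 ATG8 genes, 3 were higher and 1, Gabarapl1, was lower in the KO-labelled libraries. Gabarap was at 80.5, 86.2 and 87.6 CPM in WT and 126, 133 and 133 CPM in the KO-labelled libraries. It was 1.54-fold higher with no overlap (log2 fold change 0.63, SE 0.05, edgeR adjusted p = 6.81e-10). Gabarapl1, a close relative, was at 28.8, 27.6 and 28.5 CPM in WT and 19.8, 17.4 and 15.9 CPM in the other group. It was 1.60-fold lower, again with no overlap (log2 fold change -0.67, SE 0.09, edgeR adjusted p = 1.22e-06). Gabarapl2 (GATE-16) was 1.32-fold higher, from 56.3 ± 5.01 to 74.6 ± 4.26 CPM.

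Map1lc3b, which encodes LC3B, the protein most used to follow autophagosomes, was at 98.9, 99.8 and 95.3 CPM in WT and 117, 122 and 122 CPM in the KO-labelled libraries. The difference was 1.23-fold with no overlap (log2 fold change 0.29, SE 0.05, edgeR adjusted p = 3.00e-05). Map1lc3a, the LC3A gene, was at 2.92 ± 0.853 and 3.83 ± 0.503 CPM and did not pass (edgeR adjusted p = 0.131), but passed as higher without WT replicate 3 (log2 fold change 0.57, edgeR adjusted p = 0.0460) and with the GC and length correction (0.67, edgeR adjusted p = 0.0106). The summed level of the family per kb of exon came to 99.7 ± 4.47 CPM for WT and 131 ± 2.97 CPM for the other group. Gabarap took 46.1 ± 0.102% of it in WT and 54.1 ± 0.379% in the KO-labelled libraries, while Gabarapl1 went from 14.1 ± 0.89% to 6.71 ± 0.907%. Gabarapl2 (24.2 ± 1.14% and 24.5 ± 0.857%) and Map1lc3b (13.1 ± 0.797% and 12.2 ± 0.0145%) differed little in their shares. With the longest transcript as length, the family came to 138 ± 5.94 and 184 ± 4.62 CPM per kb. Gabarap then took 45.4% and 52.8%, Gabarapl1 11.3% and 5.30%, Gabarapl2 24.3% and 24.2%, and Map1lc3b 17.2% and 15.8%. ATG8 genes resemble each other and one another's pseudogenes, so reads that the authors' counting could not separate make their counts uncertain.

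**Figure D2:**
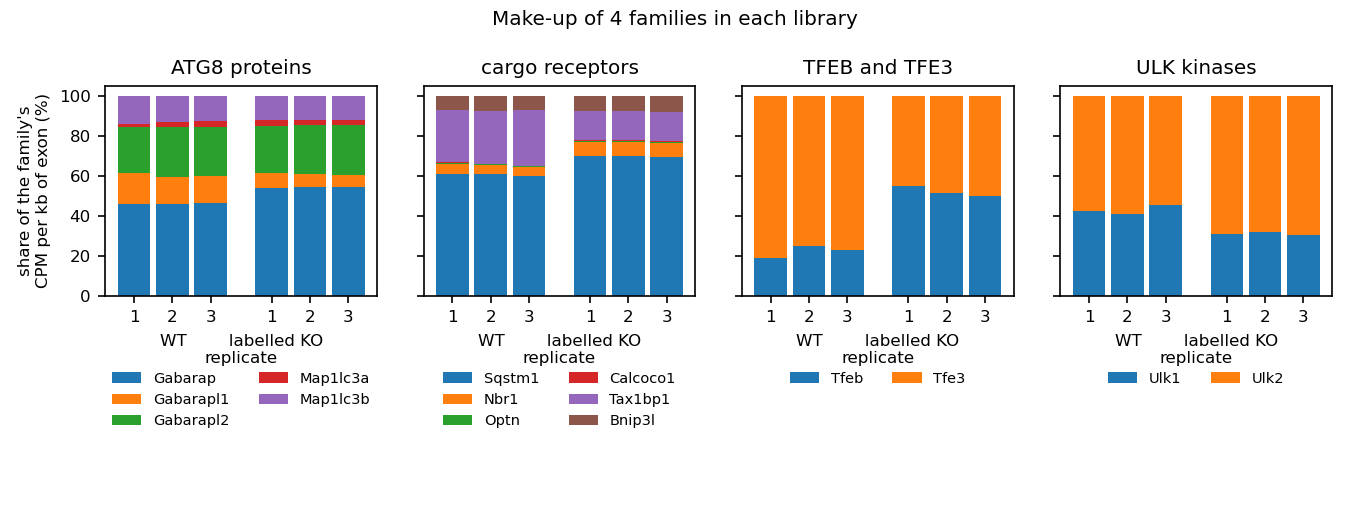
Share of each member in the summed level of its family, as percent of CPM per kb of exon (y axis), in each library (bars, replicates 1 to 3 of each group). The Gabarapl1 segment shrinks from 14.1% to 6.71%, that of Tax1bp1 from 26.8% to 14.2%, and that of Tfeb grows from 22.1% to 52.1% (group means, WT, then KO-labelled).

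Of the 6 cargo receptors, 3 were higher and 2 lower in the KO-labelled libraries. Tax1bp1, a ubiquitin-binding receptor that is also an adaptor of the NF-kB inhibitor A20, was at 595, 622 and 640.4 CPM in WT and 323, 325 and 315 CPM in the KO-labelled libraries. The groups lay far apart, with a 1.93-fold difference (log2 fold change -0.95, SE 0.04, edgeR adjusted p = 1.03e-14). Calcoco1, a receptor for the endoplasmic reticulum and the Golgi, was at 2.73, 2.00 and 2.48 CPM in WT and 10.7, 9.35 and 8.71 CPM in the other group. This 4.17-fold difference (log2 fold change 2.06, SE 0.18, edgeR adjusted p = 1.03e-09) was the largest of the 37, at a low level. Nbr1, a receptor for peroxisomes and aggregates, was at 77.5, 70.0 and 66.7 CPM in WT and 106, 109.8 and 107 CPM in the KO-labelled libraries, 1.51-fold higher with no overlap (edgeR adjusted p = 8.95e-09).

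Sqstm1, which encodes the receptor p62, was at 465, 483 and 466 CPM in WT and 537, 537 and 512 CPM in the KO-labelled libraries. All values of that group were above those of WT, but the difference was only 1.12-fold (log2 fold change 0.17, SE 0.04, edgeR adjusted p = 1.54e-03). Mrnip, which shares exon sequence with Sqstm1 on the opposite strand, was at 4.62 ± 0.694 and 6.51 ± 0.841 CPM. Optn, which encodes optineurin, a receptor for damaged mitochondria and bacteria, was at 6.93, 4.99 and 4.86 CPM in WT and 3.13, 3.04 and 3.94 CPM in the other group, 1.64-fold lower (edgeR adjusted p = 3.12e-03). Bnip3l (NIX), a mitophagy receptor of the outer mitochondrial membrane, was at 64.4 ± 2.87 and 68.3 ± 1.49 CPM and did not pass (edgeR adjusted p = 0.251). Summed per kb of exon, the 6 receptors came to 231 ± 3.81 and 226 ± 4.53 CPM, and to 359.7 ± 6.29 and 321 ± 6.38 CPM with the longest transcript as length. Sqstm1 made up 60.7 ± 0.545% of it in WT and 69.8 ± 0.497% in the KO-labelled libraries, and Tax1bp1 26.8 ± 0.825% and 14.2 ± 0.071%. With the longest transcript the shares were 49.0% and 61.6% for Sqstm1 and 40.5% and 23.5% for Tax1bp1.

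**Figure D3:**
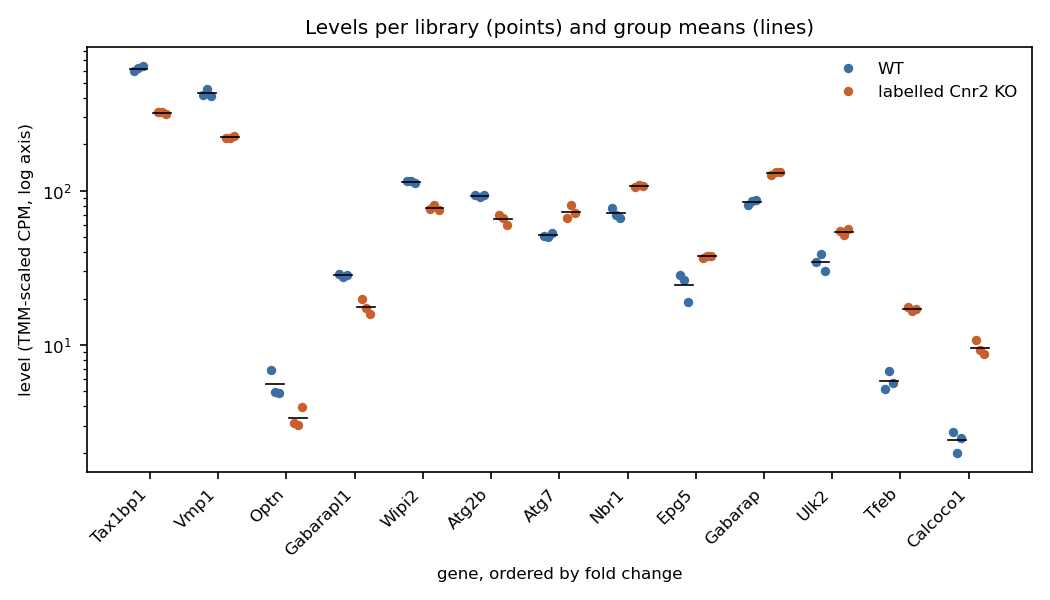
Levels in each library (points, TMM-scaled CPM on a log axis) and group means (lines) of the 13 autophagy genes that passed the test with an absolute log2 fold change of at least 0.5, ordered along the x axis from the largest decrease to the largest increase. Within every one of these genes the 3 points of one group lie wholly above the 3 of the other.

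The 2 transcription factors went in opposite directions. Tfeb was at 5.20, 6.74 and 5.71 CPM in WT and 17.7, 16.5 and 17.2 CPM in the KO-labelled libraries, so that the lowest value of that group was above the highest WT value by a wide margin. The difference was 2.83-fold (log2 fold change 1.5, SE 0.13, edgeR adjusted p = 4.03e-10). Tfe3 was 1.31-fold lower, from 33.8 ± 2.31 to 25.8 ± 2.14 CPM (edgeR adjusted p = 3.36e-04). Of their summed level per kb of exon, Tfeb took 22.1 ± 2.91% in WT and 52.1 ± 2.42% in the KO-labelled libraries. With the longest transcript as length these shares were 32.0 ± 3.69% and 64.3 ± 2.22%. Epg5, which tethers the finished autophagosome to the lysosome, was at 28.4, 26.2 and 19.0 CPM in WT and 36.7, 38.0 and 37.8 CPM in the other group, 1.52-fold higher with no overlap (edgeR adjusted p = 7.68e-05).

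Of a list of 37 further core and receptor genes, 33 were tested, with 14 higher (42.4%) and 7 lower (21.2%) in the KO-labelled libraries and a median log2 fold change of 0.20, beside 33.0%, 33.2% and 0.01 for all tested genes. The 5 with the smallest p were Pink1, Tecpr1, Phb2, Bnip3 and Ulk3. Pink1, the kinase that marks damaged mitochondria, was at 30.5, 30.3 and 29.5 CPM in WT and 117, 119 and 120.1 CPM in the KO-labelled libraries, a 3.94-fold difference (edgeR adjusted p = 7.49e-18). Bnip3, a relative of Bnip3l induced by low oxygen, was 2.45-fold lower, and Phb2, which encodes prohibitin 2 of the inner mitochondrial membrane, 2.13-fold lower (edgeR adjusted p = 3.84e-13 and 2.46e-15). Tecpr1, a tethering factor, was 2.74-fold higher and Ulk3, a kinase related to Ulk1, 1.74-fold higher (edgeR adjusted p = 1.18e-16 and 6.45e-09).

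Of 23 tested genes for the fusion of autophagosomes with lysosomes, 7 were higher (30.4%, against 33.0% of all tested genes) and 3 lower (13.04%, against 33.2%), with a median log2 fold change of 0.10. In all 43.5% of them differed, against 66.2% of all tested genes. Snap29, a SNARE protein of the autophagosome, was 1.59-fold higher, and Plekhm1 and Vamp8, a lysosomal adaptor and the lysosomal SNARE, were 1.36-fold and 1.34-fold higher. Ccz1, which helps to activate RAB7, was 1.31-fold lower and Gramd1a, a sterol transfer protein, 1.26-fold lower. In edgeR the highest adjusted p among these 5 was 1.79e-05.

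Of 42 tested regulators in the mTORC1, AMPK and FOXO pathways, which sense nutrients and energy, 20 were higher (47.6%, against 33.0% of all tested genes) and 11 lower (26.2%, against 33.2%), and the median was 0.17. AMPK is the energy-sensing kinase that activates ULK1, and 2 of its subunits were among the 5 genes with the smallest p. Prkag2 was at 29.4, 28.8 and 30.8 CPM in WT and 74.0, 74.8 and 64.1 CPM in the KO-labelled libraries, 2.40-fold higher, whereas the catalytic subunit Prkaa1 was 1.48-fold lower (edgeR adjusted p = 6.68e-13 and 2.74e-07). Sesn1, a sestrin that restrains mTORC1, was 1.93-fold higher. The arginine sensor Castor1 was 1.74-fold lower and its relative Castor2 1.83-fold higher.

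Lysosomal genes known as TFEB targets were higher in 18 of 30 cases (60.0%, beside 33.0% of all tested genes) and lower in 7 (23.3%, beside 33.2%), with a median of 0.17. Ctsd, which encodes the protease cathepsin D, was at 439, 446 and 427 CPM in WT and 892, 911 and 819.6 CPM in the KO-labelled libraries, 2.00-fold higher (edgeR adjusted p = 9.40e-15). Psap, the precursor of the saposins, was 2.02-fold higher. In the other direction Cln3, a lysosomal membrane protein, was 3.23-fold lower and Neu1, a sialidase, 1.84-fold lower (edgeR adjusted p = 8.58e-17 and 1.46e-11). Of the genes named from the pathway lists, Pink1, Phb2, Bnip3, Snap29, Plekhm1, Ccz1, Gramd1a, Prkag2, Ctsd and Cln3 share exon sequence with another annotated gene, among them Pi4ka opposite Snap29 and Apobr opposite Cln3.

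**Figure D4:**
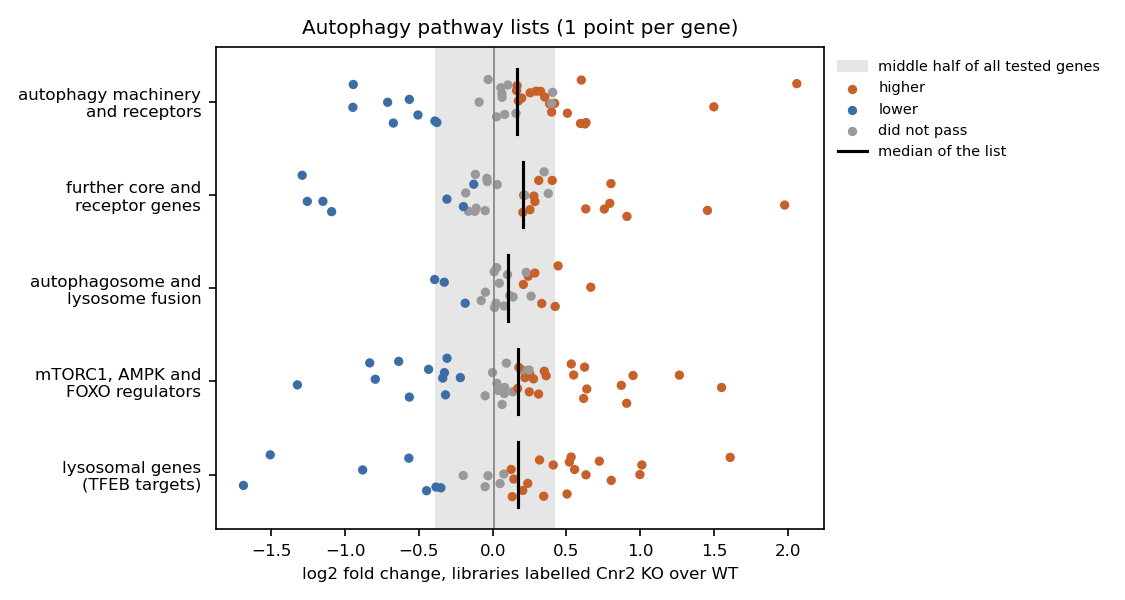
Log2 fold change (x axis, KO-labelled libraries over WT) of every tested gene of the 37 autophagy genes and of the 4 pathway lists (rows, 1 point per gene, coloured by the edgeR call), with the median of each list as a black line. The medians lie between 0.10 and 0.20, inside the grey band from -0.38 to 0.41 that holds the middle part of all tested genes, from the 25th to the 75th percentile.

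Of the 37 autophagy genes, 12 share exon sequence with another annotated gene, and in 7 of these that neighbour is a gene of the table. Beside Gskip and Mrnip the neighbours with the highest levels were Ankzf1, opposite Atg9a, at 19.6 ± 2.78 and 19.99 ± 0.662 CPM, and Zcchc14, opposite Map1lc3b, at 5.00 ± 0.281 and 5.26 ± 0.608 CPM, neither of which passed the test. How strand was treated in counting is not given in the sources used here, and reads of such pairs cannot be told apart. None of the 37 lies on chromosome 4, which carries Cnr2.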

How the data were processed

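RNA-seq counts of 6 libraries, 3 per genotype, were used. The authors deposited 1 table of expected counts, of which 59.1 to 81.2% per library were whole within a tolerance of 0.02. Build mm10 and the tools STAR 2.7.8, Partek 10.0 and DESeq2 are named, per the submitters' processing notes, without their roles. The counting method is not given in the sources used here. Values were rounded, genes filtered with filterByExpr (minimum count 10, minimum total 15), which left 12150 and removed 4438, and tested with edgeR 4.0.16 in R 4.3.3 (TMM scaling, quasi-likelihood test, genotype as the only term). SE is the absolute log2 fold change divided by the square root of F. Positions and lengths are from GENCODE M21 (GRCm38, the same build as mm10), which matched all 37 genes.

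The 37 genes and all lists were chosen with earlier results of these data known. Values in every library are given for genes that passed with an absolute log2 fold change of at least 0.5 and for Ulk1, Becn1, Atg5, Atg7, Map1lc3b and Sqstm1, and the 5 genes with the smallest p are named in each pathway list, except 1 that is not reported here. No library repeated another: pairs within a group had a chi-square of 4.15 to 8.07 per gene, above sampling noise. Alternatives were other scalings, filters, thresholds and tools (DESeq2 1.42.0, limma 3.58.1), a replicate block, leaving out each library, thinning of WT replicate 2 and a GC and length correction, and, chosen after seeing the data, the longest transcript as length. The test was checked on simulated counts.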

Additional observations from a re-analysis of the deposited data

How the results depend on the processing

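Of the 37 autophagy genes, 27 kept their side of the threshold under all 16 alternatives that gave a value, and 0 reversed with a call. A change of direction was not counted where neither fit gave a call. Of 589 combinations of gene and alternative, 26 lost a call and 6 gained one. The number of autophagy genes that were higher ran from 14 to 18 when each library was left out in turn, and the number lower was 8 each time. The count stayed within 1.5 times for both directions under every alternative, with 15 higher and 8 lower without a filter, 16 and 8 in DESeq2 and 17 and 10 with the GC and length correction. That correction lowered the median log2 fold change of the 37 from 0.17 to 0.09 and took the calls of Rb1cc1 and Atg16l1. Of the pathway lists, the fusion genes had 11 higher with upper-quartile scaling against 7, which moved the median of all genes from 0.01 to 0.05. Samples with the same replicate number correlated at 0.0164 to 0.0873 in their deviations from the group means. Samples with different numbers correlated at -0.0732 to 0.00499, so the same-number values were higher, though all were weak. The labels do not say whether the numbers mark pairs, and the replicate block gave 18 higher and 8 lower. Under the stricter filter 3 of the 37 genes, Wipi1, Map1lc3a and Optn, were not tested. The number lower was then 7, without Optn, which was called lower in the main test. Depth limits genes near 1 to 4 CPM, such as Wipi1 and Map1lc3a. The cause of these shifts was not tested.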
